A study of Mus musculus with 12 samples.

Results

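The cytosolic ribosomal proteins are the protein subunits of the ribosomes that translate nuclear messages in the cytoplasm. They were taken here as every gene whose probe set carried a single symbol of the form Rpl, Rplp or Rps with a number, or Rpsa, leaving out pseudogene symbols ending in -ps and the Rps6k kinases. That rule found 48 genes of the 18194 with a single symbol on the array, and 45 of them were among the 10583 genes tested, whose mean log2(signal + 32) reached 6.76, the median over all probe sets. By the prefix of the symbol alone, 26 of the 48 were counted with the large (60S) subunit and 22 with the small (40S) subunit. The latter include Rps4l, which RefSeq lists as a transcribed pseudogene. Each gene was read from its single-symbol probe set (a group of short oligonucleotides against a transcript) with the highest mean. The rule used the measured values in no other way, but the genes were chosen with earlier results of these data known.

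RNA of mouse blood cells was hybridised to 12 one-colour Affymetrix mouse arrays, 3 in each of 4 groups: knockout arrays labelled plus, knockout arrays labelled minus, control arrays labelled plus and control arrays labelled minus. Knockout mice lacked Stat5a and Stat5b, the pair of transcription factors that relay signals of many blood cytokines, and control mice had both genes. The labels do not explain the letters CMP: the protocols name CMP as a treatment, while many titles carry the letters on minus arrays too, where they could name the cells. What the sign stands for is therefore unknown, and "plus" and "minus" are used here only as the sign of the array's title. Strain, age, sex, the type of blood cell and the means of deleting the genes are not given in the sources used here. Nothing states that the arrays of a group came from separate animals, so the p-values reflect the spread among these samples and no more. By the form of their titles the arrays fall into 3 naming sets of 1 array per group, here A, B and C. The minus knockout array of set B has a treatment protocol that names a control, and it was grouped by its title.

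Ribosomal protein genes are among the most highly transcribed genes of growing cells, and the proteins are made in matched amounts because each ribosome holds a single copy of nearly all of them. The acidic stalk proteins Rplp1 and Rplp2 are the exception. Their messages belong to the TOP class (terminal oligopyrimidine), which begins with a C followed by a run of pyrimidines and is regulated mainly at translation, through mTORC1 and LARP1, rather than by the amount of message. Mutations in RPS19, RPS26, RPL11 and other members cause Diamond-Blackfan anaemia in humans, in which red cell precursors fail, and loss of 1 copy of RPS14 is part of the human 5q- syndrome.

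The promoters of these genes, which the selection rule did not use, were read next. RefSeq (GRCm38.p6) promoters, 250 bases before to 50 after each transcript start, were found for 42 of the 48 genes, 50 promoters in all because 7 genes have several starts. A run of 8 or more pyrimidines on the gene's strand within 20 bases on each side of the start was present in 40% of these 50 promoters, against 16.0% of all 32851 promoters, and a run of 10 or more in 28% against 7.39%. The median longest run was 7 bases in the ribosomal protein promoters and 5 in all promoters. Below are the stretches from 40 bases before to 20 after the start, 5′ to 3′ on the gene's strand, with the longest pyrimidine run in capitals. Rpl12 and Rps27l are shown because they fell with the plus label, and the other 6 because their runs were the longest and they did not pass the test.
Rpl12 (chr2:32961672-32961731, + strand): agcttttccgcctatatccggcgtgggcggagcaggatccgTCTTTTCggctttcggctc
Rps27l (chr9:66946046-66946105, + strand): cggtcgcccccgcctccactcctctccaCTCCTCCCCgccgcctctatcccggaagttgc
Rpl7a (chr2:26910767-26910826, + strand): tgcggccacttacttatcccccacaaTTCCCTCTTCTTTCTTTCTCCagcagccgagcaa
Rpl27a (chr7:109519155-109519214, + strand): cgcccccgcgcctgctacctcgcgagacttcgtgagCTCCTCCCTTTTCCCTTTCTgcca
Rpl35 (chr2:39005112-39005171, - strand): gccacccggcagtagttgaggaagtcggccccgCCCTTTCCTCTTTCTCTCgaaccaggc
Rpl13a (chr7:45128726-45128785, - strand): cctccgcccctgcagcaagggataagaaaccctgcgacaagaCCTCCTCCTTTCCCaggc
Rpl14 (chr9:120571477-120571536, + strand): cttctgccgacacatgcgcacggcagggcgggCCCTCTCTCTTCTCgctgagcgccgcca
Rpl4 (chr9:64173347-64173406, + strand): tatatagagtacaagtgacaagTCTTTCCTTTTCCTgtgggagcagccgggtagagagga

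The run of Rpl7a spans 21 bases and that of Rpl27a 20 bases, and both were shown for their length. The run of Rpl12 spans 7 and that of Rps27l 9, beside the median of 7 in the ribosomal protein promoters. A second start of Rps27l has a run of 4. These runs therefore do not compare genes that passed with genes that did not. Further motifs were searched on both strands of the whole promoters, and none of these strings contains another. CCGGAAG, the core bound by the ETS family, was in 40% of the ribosomal protein promoters and 8.86% of all promoters. GGGCGG, the Sp1 box, was in 52% and 35.7%, and GCCATNTT, the YY1 core, in 16% and 6.05%. TTCNNNGAA, the core bound by STAT proteins including Stat5, was in 6% (3 of 50) and 8.30%, and TATAAA in 12% and 13.6%. A match is a description of the letters in the window and not a measured site.

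The genotype labels were checked first with the targeted genes. Stat5a had a signal of 28.9 to 90.1 on the 6 knockout arrays and 660 to 1436 on the 6 control arrays, and Stat5b 7.28 to 82.8 and 1036 to 2177. The minus knockout array of set B, whose protocol names a control, is among these 6 knockout arrays. Its signals of both genes were therefore those of a knockout. The log2 change, knockout over control, was -3.80 ± 0.29 for Stat5a and -4.59 ± 0.33 for Stat5b among minus arrays (± SE, limma, adjusted p = 0.000107 for both). The 5 general blood cell markers were bright, with Ptprc, the common leukocyte antigen, at 6938 to 15242, while T cell markers Cd3e, Cd3g and Cd5 all lay below the level of the test. All 6 myeloid and 3 platelet markers reached that level, from Mpo at 15537 to 56983 down to Gp9 at 41.6 to 600. The B cell marker Cd79b reached it, while Cd79a and Pax5 did not. Of the non-blood markers, Col1a2, Epcam, Krt18 (479 to 2219) and Pecam1 reached it, while Alb and Col1a1 did not. Among the 6 erythroid markers, 4 were on the array with a single symbol, and Hba-a1 and Alas2 were below that level. Where fewer cells of a type and less RNA per cell would both lower a signal, these bulk arrays cannot tell them apart.

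Naming set B stood apart from sets A and C, and most ribosomal protein genes moved with it. The mean log2(signal + 32) of set B minus that of sets A and C had a median of 1.51 over the 45 tested ribosomal protein genes, and 33 of the 45 exceeded 1. Over all 10583 genes the median of that offset was -0.09, and 6.47% exceeded 1. The median signal of the 45 genes was 30816 to 42381 on the 4 arrays of set B and 12835 to 14955 on the 8 others. The brightest probe set of an array read 59691 to 126575 in set B and 19105 to 26874 in sets A and C, although every array has the same trimmed mean of 500.0. The ratio of the 3′ to the 5′ beta-actin probe set, which rises as RNA is degraded or copied short, was 19.5 to 52.4 in set B and 1.19 to 4.38 in the others. The same ratio for Gapdh, on the log2 scale, was 4.66 to 5.79 in set B and 1.10 to 4.49 in the others. The part of these ratios in the offset was not tested, and the naming set was a term in every model.

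The offset was uneven among the genes. Rpsa, the laminin receptor that also sits in the 40S subunit, read 51311, 81087, 102542 and 77156 on the plus knockout, minus knockout, plus control and minus control arrays of set B, and 18245 to 25312 on the other arrays. Its offset was 1.90, and that of Rps14 was 1.87. Rpl27a had the highest offset at 2.63. At the other end Rps6, the substrate of the S6 kinases, had an offset of 0.02, Rpl7l1 0.01 and Rps19 0.20. The offset was negative for Rpl12 at -0.29 and for Rps4l at -0.54. Rpsa and Rps14 therefore read several times brighter in set B than in the other sets, while Rps6 and Rps19 did not.

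**Figure D1:**
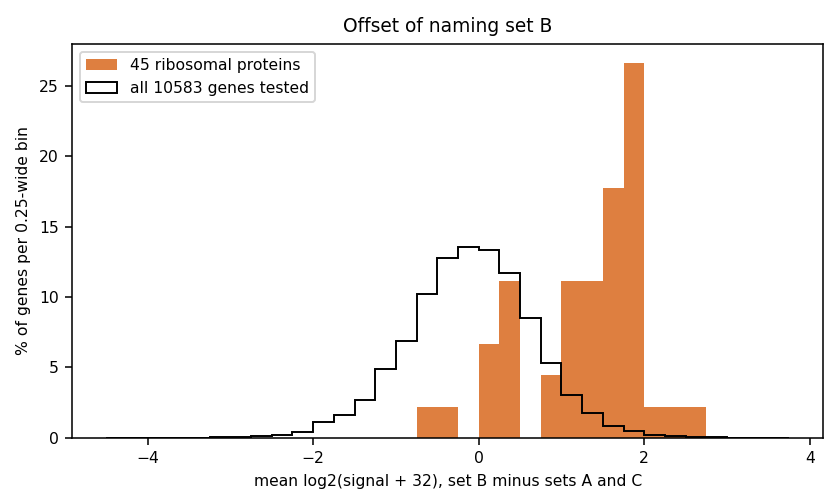
Distribution of the offset of naming set B, its mean log2(signal + 32) minus that of sets A and C, as a percent of genes in bins of 0.25, for the 45 ribosomal protein genes (orange bars) and all 10583 genes tested (black outline). The ribosomal protein genes centre on 1.51 and all genes on -0.09.

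Plus arrays were first compared with minus arrays within each genotype. Very few ribosomal protein genes were called, each read from its brightest single-symbol probe set. In knockouts 0 of the 45 rose and 1 fell, while 18.8% of all tested genes were called, 9.03% higher and 9.72% lower (limma, adjusted p under 0.05). In controls 0 rose and 3 fell, while 22.1% of all tested genes were called, 10.6% higher and 11.6% lower. The genes that fell were Rpl12 in both genotypes, and Rps4l and Rps27l in controls. Counted by subunit from the symbol prefix, 1 of 24 large-subunit genes and 0 of 21 small-subunit genes fell in knockouts. In controls 1 of 24 and 2 of 21 fell, the latter including the transcribed pseudogene Rps4l. The counts depended on set B, and so did those of all genes, which were 1985 in knockouts and 2344 in controls with all 12 arrays. Without its 4 arrays, 5 ribosomal protein genes fell in knockouts (Rpl12, Rps25, Rps27l, Rps4l and Rps9), with 2648 of all genes called, and in controls 6 fell and 1 rose, with 3074 of all genes called. The controls' count was also 7 without the plus knockout array of set B alone, and the knockouts' count was then 3. Without the minus control array of set C, Rpl12 alone was called in controls. Leaving out the minus knockout array of set C gave 2 genes in knockouts, Rpl12 and Rps27. The counts of all genes in these fits without 1 array are not given here. Such changes need not be particular to the ribosomal protein genes.

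The other genes lay close to 0. The log2 change was within 0.5 of 0 for 41 of the 45 genes in knockouts (91.1%, against 61.6% of all genes) and for 39 of 45 in controls (86.7%, against 59.9%). Their median signal in sets A and C was 12835 to 14955, where the brightest probe set of an array read 19105 to 26874. All genes include dimmer ones, and the part of brightness in the narrower spread was not tested. Dimmer probe sets of some ribosomal protein genes moved further, as given below. The median change of the 45 genes was -0.08 in knockouts, where that of all genes was -0.06, and 0.07 in controls, where that of all genes was -0.02. With every array centred on its own median, the medians over all genes became -0.13 in knockouts and -0.22 in controls, and those of the ribosomal protein genes -0.14 and -0.13. That centring moves all genes by the same amount, and it turns the sign of the median in controls. Without the plus knockout array of set B the median in knockouts was 0.0516, where that of all genes was -0.01. At an unadjusted p under 0.05, 5 ribosomal protein genes passed in knockouts, with 3590 of all genes, and 6 in controls, with 3849 of all genes.

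**Figure D2:**
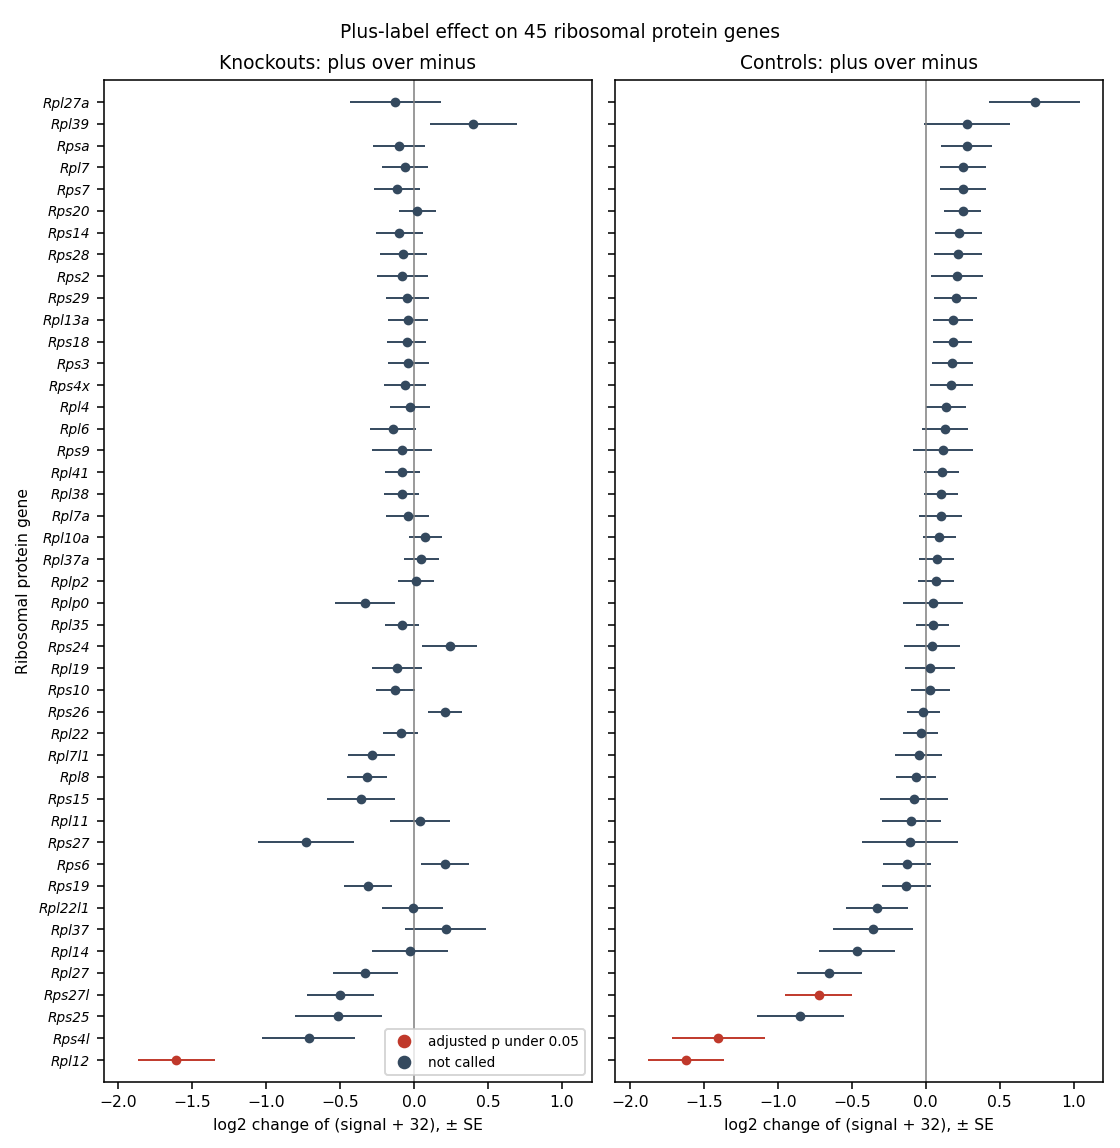
Log2 change of signal + 32, plus over minus, for each of the 45 tested ribosomal protein genes in knockouts (left) and controls (right), with horizontal bars of ± 1 SE from the limma model; genes are ordered by the change in controls and red marks an adjusted p under 0.05. Rpl12 stands at -1.61 in knockouts and -1.62 in controls, and 41 and 39 of the 45 genes lie within 0.5 of 0.

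Rpl12, which binds ribosomal RNA at the base of the large-subunit stalk, had a signal of 636, 331 and 652 on the plus knockout arrays of sets A, B and C, against 1916, 1404 and 1644 on the minus knockout arrays. It had 648, 713 and 726 on the plus control arrays, against 1616 to 2990.0 on the minus control arrays. Every plus array was below every minus array of its genotype, and all 6 same-set pairs ran downward. The log2 change was -1.61 ± 0.26 in knockouts (limma, adjusted p = 0.00195) and -1.62 ± 0.26 in controls (limma, adjusted p = 0.00158). On the linear scale the mean was 539 ± 181 in plus knockouts and 1655 ± 256 in minus knockouts, and 695 ± 41.8 in plus controls and 2274 ± 689 in minus controls (SD, n = 3 each).

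The fall of Rpl12 was a property of 1 probe set. That probe set is the only one that lists Rpl12 alone. A further 2 probe sets list Rpl12 together with other symbols, and they changed by -0.16 and -0.09 in knockouts and by -0.03 and -0.06 in controls, with limma adjusted p of 0.391 or higher across all probe sets. Their signals were 10557 to 51007 on every array, including the plus arrays. Which of the transcripts each probe set measured was not tested.

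Rps4l is annotated in RefSeq as a transcribed pseudogene on chromosome 6 and resembles the gene of the small-subunit protein S4. Its signal was 97.3, 138 and 97.9 on the plus knockout arrays of sets A, B and C, against 255, 111 and 273 on the minus knockout arrays. It was 63.4, 20.9 and 76.1 on the plus control arrays, against 166, 134 and 275 on the minus control arrays. The plus and minus controls did not overlap, while the knockouts did through set B. The log2 change was -1.40 ± 0.31 in controls (limma, adjusted p = 0.00880), and it was -0.71 ± 0.31 in knockouts (limma, adjusted p = 0.134), which did not pass. The interaction, the change in knockouts minus that in controls, was 0.69 ± 0.45 with a limma adjusted p of 0.954, so a difference between the genotypes was not shown. These signals are low, near the level at which genes entered the test, and 4 of 29 alternative settings lost the Rps4l call. It had an adjusted p of 0.0515 without the minus control array of set C and 0.109 without the whole of set C (limma).

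Rps27l is the p53-inducible paralog of the small-subunit protein Rps27. It read 2383, 4851 and 1941 on the plus knockout arrays, against 4444, 4091 and 3524 on the minus knockout arrays of sets A, B and C. It read 1914, 2390.5 and 1661 on the plus control arrays, against 3548, 3318 and 2970.2 on the minus control arrays. The controls did not overlap, and the pair of knockouts in set B ran upward, at 0.24, against the other 5 pairs. The log2 change in controls was -0.72 ± 0.23 (limma, adjusted p = 0.0403), and -0.50 ± 0.23 in knockouts (limma, adjusted p = 0.145). All 3 probe sets of Rps27l were lower in plus controls, at -0.93, -0.72 and -0.66, and 2 of the 3 passed in a fit of every probe set. Of 29 alternative settings 14 lost the Rps27l call, with limma adjusted p between 0.000625 and 0.249 over the 29. Leaving out any 1 of the plus control arrays, of the minus control arrays of sets A and C or of the minus knockout arrays of sets A and C was enough.

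**Figure D3:**
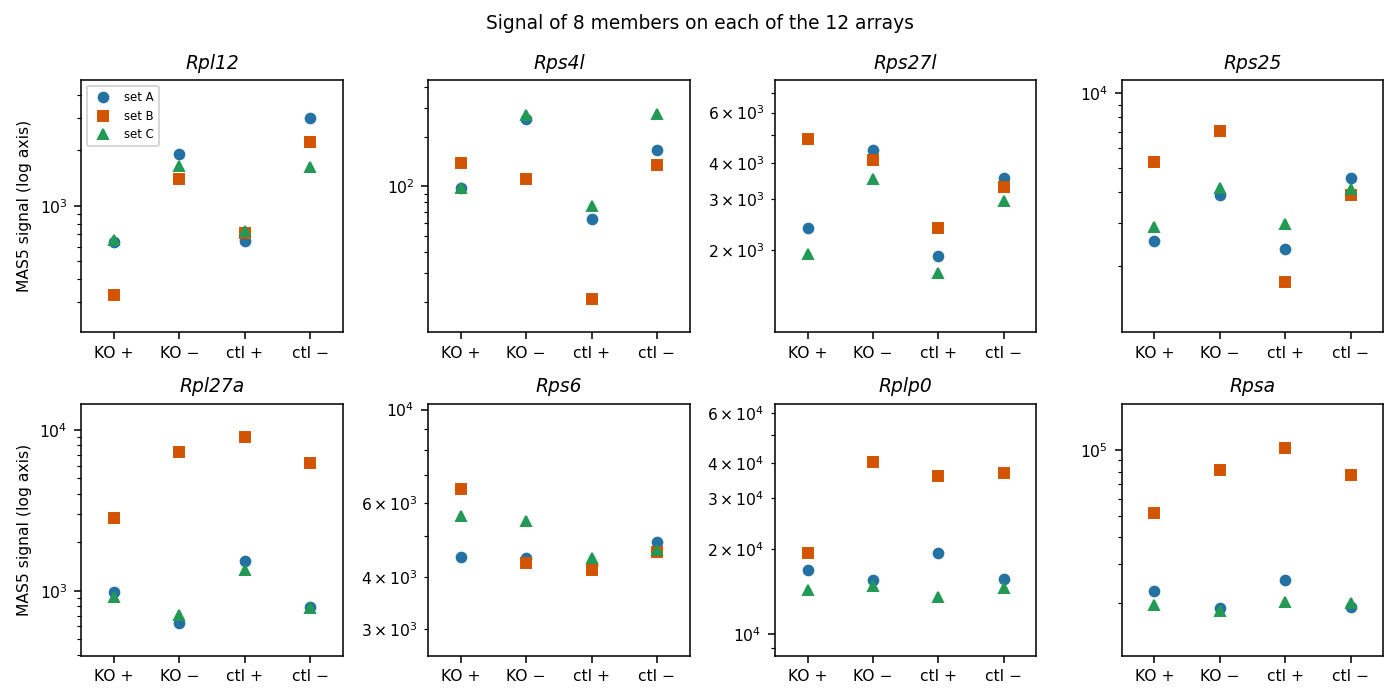
MAS5 signal (log axis) of 8 ribosomal protein genes on each of the 12 arrays, by group (knockout plus, knockout minus, control plus, control minus) and naming set (blue circles A, orange squares B, green triangles C). Rpl12 is lower on every plus array than on every minus array of its genotype, whereas set B lies far above the other sets for Rpl27a and Rpsa.

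Several genes came close without passing. Rps25, a small-subunit protein needed for initiation at several viral internal entry sites, read 2521, 5290.3 and 2879 on plus knockout arrays, against 3869, 7057 and 4130.0 on minus knockout arrays. It read 2353, 1735 and 2958 on plus control arrays, against 4533, 3866 and 4095 on minus control arrays. All 6 pairs ran downward, by -0.51 ± 0.29 in knockouts and -0.85 ± 0.29 in controls (limma, adjusted p = 0.243 and 0.0583). Its probe set with further symbols changed by 0.04 in knockouts and -0.15 in controls. Rpl27, a large-subunit protein, differed by -0.33 ± 0.22 in knockouts and -0.65 ± 0.22 in controls (limma, adjusted p = 0.318 and 0.0528).

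The values nearest to a rise also missed the threshold. Rpl27a, a large-subunit protein, read 976, 2839 and 919 on plus knockout arrays, against 633, 7319.9 and 704 on minus knockout arrays. It read 1539, 9088 and 1336 on plus control arrays, against 796, 6254 and 779.5 on minus control arrays. Of the 6 pairs 5 ran upward, and the set B knockout pair ran downward by -1.36. The change in controls was 0.74 ± 0.31 (limma, adjusted p = 0.107). Among the other values above 0 with the smallest p were Rps20 at 0.25 and Rpl7 at 0.25 in controls, and Rps26 at 0.21, Rpl39 at 0.40 and Rps24 at 0.24 in knockouts. Below 0 in knockouts, Rpl8 stood at -0.32 and Rps27 at -0.73, neither past the threshold.

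The disease-linked proteins Rps19 and Rps14, the 5S RNA-binding protein Rpl11 and Rps6 did not pass in either genotype. Rps19 changed by -0.31 ± 0.17 in knockouts and -0.13 ± 0.17 in controls, and Rps14 by -0.10 ± 0.16 and 0.22 ± 0.16. Rpl11, which with Rpl5 and 5S RNA binds Mdm2, stood at 0.04 ± 0.20 in knockouts and -0.10 ± 0.20 in controls. Rps6 stood at 0.21 ± 0.16 in knockouts and -0.13 ± 0.16 in controls. The limma adjusted p of these genes was 0.207 or higher. With SEs of this size, small changes could not be shown or excluded.

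Of the stalk proteins, Rplp0 and Rplp2 were measured. Rplp0, the stalk's anchor and a frequent reference gene, read 16838, 19338 and 14352 on plus knockout arrays, against 15579, 40341 and 14812 on minus knockout arrays. It read 19381, 35972 and 13490.0 on plus control arrays, against 15715, 36871 and 14587 on minus control arrays. The plus knockout array of set B was lower than the other 3 arrays of its set, and the other pairs lay closer together. The change of Rplp0 was -0.33 ± 0.20 in knockouts and 0.05 ± 0.20 in controls, and that of Rplp2 0.01 ± 0.12 and 0.07 ± 0.12, none past the threshold. Rplp1, Rpl5, Rpl3 and Rpl10 have no probe set of their own and are not among the 48.

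The paralogs were set beside their partners where both had a single-symbol probe set. Rpl22l1, which replaces Rpl22 in some ribosomes, changed by -0.01 ± 0.21 in knockouts and -0.33 ± 0.21 in controls, and Rpl22 by -0.09 ± 0.12 and -0.04 ± 0.12. Rpl7l1, an assembly-linked relative of Rpl7, changed by -0.29 ± 0.16 and -0.05 ± 0.16, and Rpl7 by -0.06 ± 0.16 and 0.25 ± 0.16. Neither paralog nor partner of these pairs passed. Rps27 itself, at signals of 60.9 to 392.4, stood at -0.73 ± 0.32 in knockouts and -0.11 ± 0.32 in controls. Rpl39 stood at 0.40 ± 0.29 and 0.28 ± 0.29, without passing.

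Of the 48 genes, 3 lay below the level of the test on these arrays. Rpl3l, the striated-muscle form of Rpl3, had signals of 6.02 to 35.9, and Rpl39l, the testis-rich form of Rpl39, 4.43 to 91.1. Rps16 read 0.48 to 22.4, while its 2 probe sets shared with other symbols were bright, so that its own probe set is no guide to its message. Just above that level lay Rps27 and Rps4l.

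Probe sets of the same gene did not always move together. The 48 genes have 104 single-symbol probe sets, 24 genes having several, and 93 of the 104 were bright enough to be tested. In a fit of every probe set, 3 of these 93 fell and 1 rose in knockouts, and 8 fell and 1 rose in controls. Of all 22551 probe sets in that fit, 6.57% fell and 6.93% rose in knockouts, and 8% fell and 10.2% rose in controls. For Rpl41, whose product is the smallest ribosomal protein, the chosen probe set changed by -0.08 in knockouts and 0.11 in controls, while a dimmer probe set changed by -1.61 ± 0.23 and -1.77 ± 0.23 and another by -1.59 ± 0.22 and -1.78 ± 0.22 (limma, adjusted p of 0.00144 or less). The first of these dimmer Rpl41 probe sets read 595, 469 and 590.1 on plus knockout arrays, against 1746, 1203 and 2518 on minus knockout arrays.

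For Rps24, the chosen probe set changed by 0.24 in knockouts and 0.04 in controls, while a dimmer probe set rose by 1.30 ± 0.25 and 1.15 ± 0.25 (limma, adjusted p = 0.00679 and 0.00939). That dimmer probe set of Rps24 read 1902, 1121 and 1366 on plus knockout arrays, against 592, 561 and 528 on minus knockout arrays. In controls, a further probe set of Rpl22 fell by 0.69 and one of Rps9 fell by 0.96 on the log2 scale, where the chosen probe sets did not pass. In knockouts these probe sets stood at -0.37 for Rpl22 and -0.71 for Rps9, without passing. These probe sets were named after their values were seen. What part of a transcript each probe set measures was not tested.

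A further 110 probe sets list a ribosomal protein gene along with other symbols, mostly pseudogenes, and 28 symbols occur only on these. They entered none of the counts of genes above. Of the 102 that were bright enough, 3 fell and 0 rose in knockouts, and 4 fell and 1 rose in controls (limma over all probe sets, adjusted p under 0.05), where 13.5% of all probe sets were called in knockouts and 18.2% in controls. The probe sets that fell list Rps13, at -1.68 in knockouts and -2.01 in controls, Rpl3, at -1.04 and -1.19, and Rpl9, at -1.31 and -1.26, and in controls also Rpl30, at -1.06. A probe set listing Rpl13 rose by 0.9998 in controls. They too were named after their values were seen.

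Other measures moved with the plus label in the same comparisons. The beta-actin 3′ to 5′ ratio was higher on the plus array in 6 of 6 pairs. That of Gapdh was lower on the plus array in the control pair of set B (log2 4.71 against 4.76) and higher in the other pairs. Among erythroid markers, Klf1, the erythroid transcription factor, changed by -2.43 in knockouts and -2.02 in controls on the log2 scale, and Car1, carbonic anhydrase of red cell precursors, by -3.74 and -3.505 (limma, adjusted p of 0.0159 or less). The summed signal of the 4 erythroid markers on the array was 541 to 1162 on plus knockout arrays, against 3820.4 to 17376 on minus knockout arrays, and 709 to 2731 on plus control arrays, against 4498 to 27756 on minus control arrays. The haemoglobin gene Hba-a1 stayed at 3.53 to 102 throughout. Of 3 platelet markers, Gp9 changed by -1.43 in knockouts and -1.25 in controls, and the summed platelet signal was 9766 to 17753 on plus knockout arrays, against 14821 to 20912 on minus knockout arrays, and 12827 to 21561 on plus control arrays, against 17185 to 23999 on minus control arrays. Of 6 myeloid markers, 1 fell in knockouts and 2 fell in controls, where 9.72% and 11.6% of all genes fell. When the beta-actin ratio was added as a covariate, the Rpl12 change was -1.05 in knockouts and -1.10 in controls, and the knockout value no longer passed (limma, adjusted p = 0.0854). The part of these cell markers in the ribosomal protein values was not tested.

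Knockout arrays were compared with control arrays next, which asks whether loss of Stat5a and Stat5b shifts these genes. In plus arrays 0 of the 45 passed and in minus arrays 0 of 45, and 0.0189% of all genes were called in either comparison, Stat5a and Stat5b themselves (limma, adjusted p under 0.05). At an unadjusted p under 0.05, 14 ribosomal protein genes and 1038 of all genes passed in plus arrays, and 0 and 250 in minus arrays. The median change of the 45 genes, knockout over control, was -0.17 in plus arrays, where that of all genes was -0.04, and -0.02 in minus arrays, where that of all genes was -0.01.

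The shift of the ribosomal protein genes in plus arrays was largest in naming set B. Whether that shift, or the traits of any array, accounts for the 14 genes was not tested. In plus arrays the within-set difference had a median over the 45 genes of -0.10 for set A, -0.46 for B and 0.02 for C. In minus arrays the same medians were -0.02, 0.00 and -0.05. The plus knockout array of set B had the highest beta-actin ratio of all arrays, 52.4, and the lowest median ribosomal protein signal of its set, 30816. Its source label also opens with a different number from the other arrays of set B. Without set B the median in plus arrays was -0.05, where that of all genes was 0.01. It was 0.02 with each array centred on its median, where that of all genes was 0.15, and 0.05 after quantile normalization, where that of all genes was 0.03.

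In plus arrays 34 of the 45 genes were below 0 and 11 above. Within sets A, B and C, 16, 10 and 27 of the 45 were above 0, against 51.7%, 43.5% and 51.2% of all genes. Of the 14 ribosomal protein genes with an unadjusted p under 0.05 (limma), 9 were lower and 5 higher in knockouts. Among the 3 genes of smallest p in each direction, Rpl27a stood at -0.94 ± 0.31, Rps7 at -0.39 ± 0.16 and Rps4x, the X-linked form of the S4 protein, at -0.34 ± 0.14, knockout over control. Above 0 stood Rps4l at 0.80 ± 0.31, Rpl37 at 0.75 ± 0.27 and Rps27l at 0.51 ± 0.23. All had a limma adjusted p of 0.507. For Rps4l the set differences were 0.44, 1.68 and 0.26 in sets A, B and C, and for Rps27l 0.31, 1.01 and 0.22. For Rpl27a they were -0.64, -1.67 and -0.52. Each of these 3 genes therefore ran the same way in all sets and was farthest from 0 in set B.

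In minus arrays the values were closer to 0. Rpl12 stood at -0.42 ± 0.26, Rps24 at -0.22 ± 0.19 and Rplp2 at -0.12 ± 0.12, and above 0 Rps27 at 0.58 ± 0.32, Rps27l at 0.29 ± 0.23 and Rpl7l1 at 0.22 ± 0.16. The limma adjusted p was 0.99999 for each. Of the 45 genes, 44 (97.8%) were within 0.5 of 0 in minus arrays, as were 93.8% of all genes, and 39 (86.7%) in plus arrays, as were 81.8% of all genes.

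**Figure D4:**
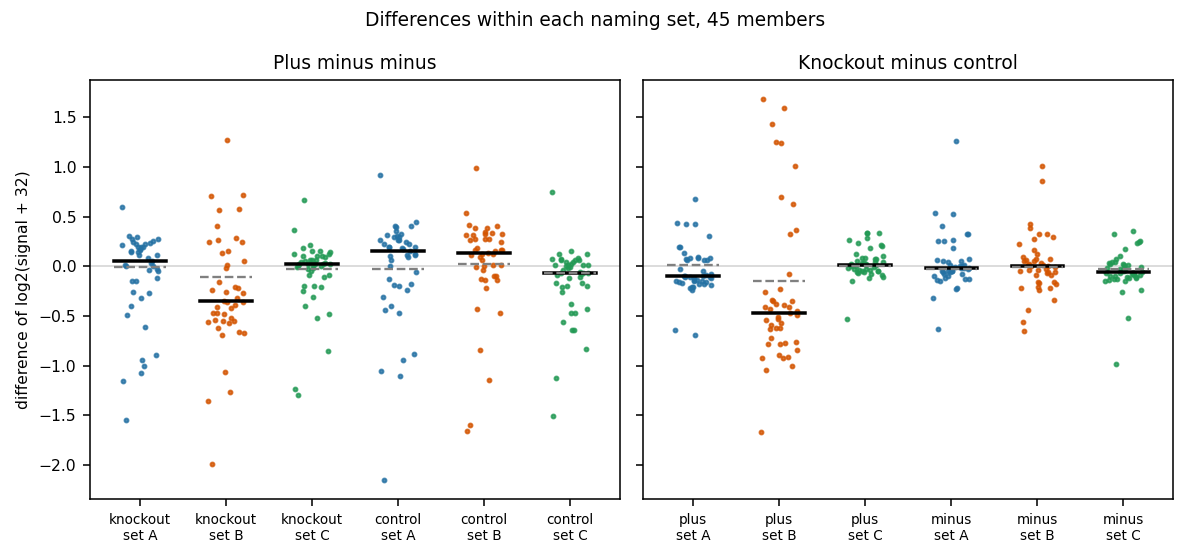
Differences of log2(signal + 32) within each naming set for the 45 ribosomal protein genes (1 point each), plus minus minus by genotype (left) and knockout minus control by label (right), with the median of the 45 genes as a solid bar and that of all genes tested as a dashed bar. The plus arrays of set B have the lowest median difference between knockout and control, -0.46, while sets A and C lie at -0.10 and 0.02.

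The interaction asks whether the plus label acts differently in knockouts and controls. It called 0 of the 45 genes and 0% of all genes, and 0 ribosomal protein genes and 223 of all genes passed at an unadjusted p under 0.05 (limma). The median interaction of the 45 genes was -0.18, where that of all genes was -0.02. By naming set it was -0.09 in A, -0.43 in B and 0.07 in C. It was -0.0405 without the plus knockout array of set B, -0.0614 without the plus control array of set B, 0.00 with array weights and 0.0487 after quantile normalization. Rpl27a at -0.87 ± 0.44 and Rps4l at 0.69 ± 0.45 were the farthest from 0 among the genes with the smallest p, which also held Rps7 at -0.37, Rpsa at -0.38, Rpl37 at 0.57 and Rps6 at 0.33. For Rpl12 the interaction was 0.01 ± 0.37.

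Other genes of translation were read from the same fit. The other TOP messages encode elongation factors, some initiation factors such as Eif3e and Eif4b, and further proteins. They had 0 of 19 genes called in knockouts and 0 of 19 in controls, with medians of -0.08 and 0.02. Those with the smallest p included Eef2, the ribosomal translocase, at -0.68 ± 0.43 in knockouts and Eef1d, an exchange factor of elongation factor 1, at -0.42 ± 0.16 in controls. Fau and Rps3a1, ribosomal proteins whose symbols the rule does not match, stood at -0.15 and -0.01 in knockouts and 0.03 and 0.18 in controls, and neither passed.

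Mitochondrial ribosomal proteins and ribosome assembly factors were read against all genes by direction. Of all genes, 9.72% fell and 9.03% rose in knockouts, and 11.6% fell and 10.6% rose in controls. Of 76 mitochondrial ribosomal protein genes, 10 fell and 0 rose in knockouts, and 14 fell and 0 rose in controls, with medians of -0.37 and -0.43. Mrpl12, which also binds the mitochondrial RNA polymerase, changed by -1.39 in knockouts and -1.13 in controls, and Mrps25 by -1.04 and -1.07. Of 39 ribosome assembly factors, 23 fell and 0 rose in each genotype, with medians of -0.70 in knockouts and -0.83 in controls. Polr1b, the second-largest subunit of RNA polymerase I, changed by -2.17 ± 0.19 and -1.79 ± 0.19, and Nop16, a nucleolar assembly factor of the large subunit, by -1.65 ± 0.19 and -1.59 ± 0.19 (limma, adjusted p of 0.000320 or less).

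The list of 25 initiation factors includes the inhibitors Eif4ebp1 and Eif4ebp2 and leaves out the factors counted with the TOP messages. Of these 25, 2 rose and 2 fell in knockouts, where 9.03% of all genes rose and 9.72% fell. In controls 3 rose and 3 fell, where 10.6% of all genes rose and 11.6% fell. Eif4ebp1, the inhibitor of cap binding that mTORC1 controls, rose by 1.34 in knockouts and 1.31 in controls, and Eif2b3, a subunit of the exchange factor eIF2B, changed by -0.94 and -1.09, and all of these passed. None of these lists had a gene called between knockouts and controls. No test compared the lists with each other.

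**Figure D5:**
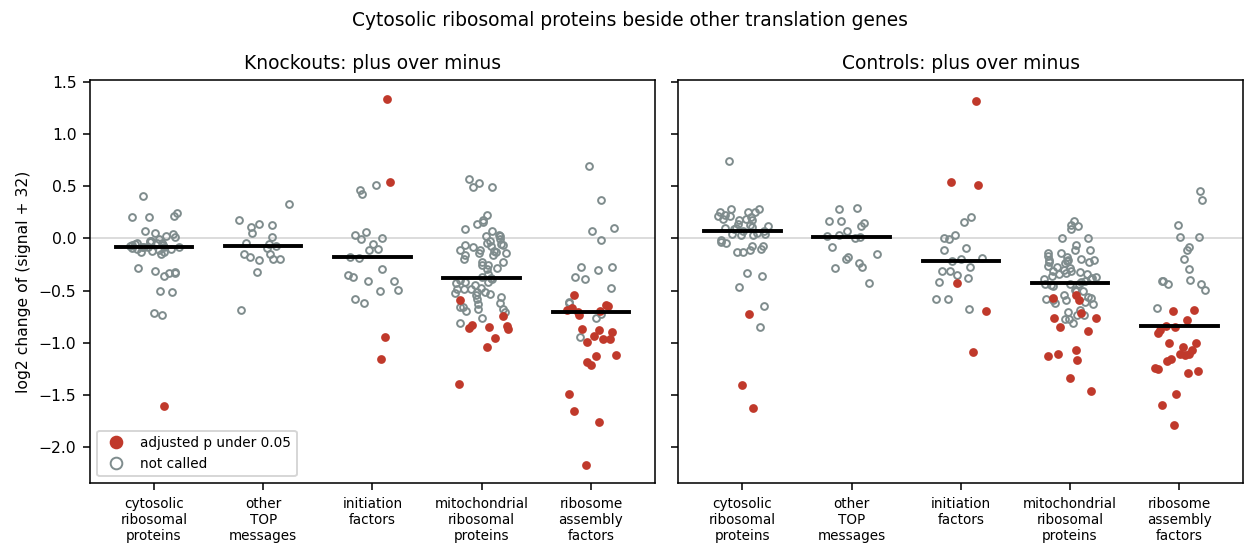
Log2 change of signal + 32, plus over minus, in knockouts (left) and controls (right) for the ribosomal protein genes and 4 other lists of translation genes, 1 point per gene; filled red points have an adjusted p under 0.05, open points do not, and black bars are medians. The ribosomal protein medians are -0.08 and 0.07, and those of the assembly factors -0.70 and -0.83.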

How the data were processed

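The deposited table holds one linear intensity signal per probe set and array, made by the authors with MAS5 per the submitters' processing notes; version, scaling target and detection calls are not given in the sources used here. On every array the mean after trimming 2% of probe sets at each end was 500.0. Of 45101 probe sets, 34958 list 1 symbol, 932 several and 9211 none in the platform annotation. The genes and lists were chosen with earlier results of these data known.

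Signals were taken as log2(signal + 32), which understates changes of dim genes. Each gene was read from its single-symbol probe set of highest mean, and genes under a mean of 6.76 were left out. limma 3.58.1 (R 4.3.3; lmFit, eBayes with trend) was fitted to all 12 arrays with the 4 groups and the naming set as a block, and two-sided p-values were adjusted by the Benjamini-Hochberg method over 10583 genes, with a threshold of 0.05. The procedure was tested on simulated data. The naming set served as the replicate block because deviations from the group means correlated by 0.41 to 0.77 in 18 same-set pairs and by -0.64 to 0.28 in 36 others. Precision is limited by 3 arrays per group.

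Named genes were up to 6 called genes per comparison and direction, otherwise the 3 of smallest p, the stalk, disease-linked and paralogous proteins, and up to 4 genes of smallest p per other list. Alternatives varied the added constant (1 or 100), scaling, filter, choice of probe sets, block, array weights, a beta-actin covariate, the array of conflicting labels and the arrays included. Centring on the ribosomal protein median and testing each probe set alone were added after the data were seen. Promoters are from RefSeq.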

Additional observations from a re-analysis of the deposited data

Results flagged for a closer look

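Rps26, a small-subunit protein near the exit channel of the message, had knockout and control arrays in a different order in plus and in minus arrays. Knockout minus control was 0.06, 0.33 and 0.07 in the plus arrays of sets A, B and C, and -0.08, -0.06 and -0.08 in the minus arrays. The effect in plus arrays minus that in minus arrays was 0.23 ± 0.16 on the log2 scale, with a limma adjusted p of 0.954 for this interaction, so the difference did not pass. The signals were 13207, 30135 and 12368 in plus knockouts against 12655, 24025 and 11756.5 in plus controls, and 11176, 24706 and 11534 in minus knockouts against 11807, 25696.5 and 12208 in minus controls.

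Rps6, the S6 kinase substrate, ran in opposite directions with the plus label by genotype. Plus minus minus was 0.00, 0.57 and 0.04 in the knockouts of sets A, B and C, and -0.18, -0.14 and -0.06 in the controls. The knockout effect minus the control effect was 0.33 ± 0.23 on the log2 scale, with a limma adjusted p of 0.954. The signals were 4452, 6457 and 5596 in plus knockouts against 4438, 4325 and 5443 in minus knockouts, and 4265, 4161 and 4433 in plus controls against 4831, 4577 and 4628 in minus controls. These 2 genes were picked out of 45 by the order of their values, so they do not show a difference between genotypes.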

How the results depend on the processing

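The count of ribosomal protein genes called between plus and minus arrays moved with several settings. The number of all genes called also differed between settings, as without set B. A changed count therefore need not be particular to the ribosomal protein genes. In controls the count of ribosomal protein genes was 3, and became 5 with the array of conflicting labels entered as a control, 5 with arrays centred on their medians, 5 after quantile normalization, 7 with array weights, 6 without _x_at and _s_at probe sets, 6 with only the 6 arrays of the comparison, 1 with no replicate block, 1 without naming set A, 7 without set B, 1 without set C, and 1 to 7 when each array was left out in turn. In knockouts it was 1, and became 6 with array weights, 0 with the beta-actin covariate, 2 with the mean of all single-symbol probe sets, 3 without _x_at and _s_at probe sets, 2 after quantile normalization, 5 without set B, and 1 to 3 when each array was left out. It was also 1 with no replicate block. Between knockouts and controls, and for the interaction, the count was 0 under every alternative run. The array of conflicting labels had the Stat5a and Stat5b signals of a knockout, so entering it as a control mixes the genotypes.

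The fall of Rpl12 was kept in 29 of 29 alternatives in controls (adjusted p 5.78e-05 to 0.0427) and in 28 of 29 in knockouts, where it was lost with the beta-actin covariate. Rpl12, Rps4l and Rps27l kept their direction in all 29. Some of the 29, such as leaving out an array of the other genotype, cannot change an estimate and alter only its error. Rpl41 in controls turned from 0.11 to -0.815 with the mean of all single-symbol probe sets and to -1.77 without _x_at and _s_at probe sets, and Rps9 turned from 0.12 to -0.963 without those probe sets, because other probe sets were then read. The median change in controls, 0.07, became -0.13 with arrays centred on their medians, where all genes stood at -0.22, and -0.0584 without _x_at and _s_at probe sets, and was 0.01 to 0.16 when each array was left out. The median of knockout over control in minus arrays, -0.02, became -0.0694 with the array of conflicting labels as a control, 0.0383 with median centring, 0.0170 with the mean of probe sets and 0.0343 after quantile normalization, and -0.0727 to 0.0084 when each array was left out. When each array was left out, the median was -0.157 to 0.0516 for plus over minus in knockouts, -0.281 to -0.0610 for knockout over control in plus arrays and -0.264 to -0.0405 for the interaction. The causes of the other changes were not tested. Signals of Rps4l, Rps27 and the genes below the tested level are too dim on these arrays to show small changes.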
